A study of Mus musculus with 2 samples.

Results

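The genes described here are 31 members of the DNA replication and S phase programme, taken by symbol from the 27998 genes of a single-cell count matrix in which 18470 genes had a UMI. A UMI is a short tag that marks each captured RNA molecule, so that copies made by PCR count once. The cells came from the lateral subventricular zone (SVZ) of male C57BL/6 mice, the stem cell niche along the lateral ventricles. They were sorted for GLAST, a glutamate transporter of astrocytes and radial glia-like stem cells, and against O4, Ter119 and CD45. One library was made from old mice (22 months, tissue of 8 animals pooled) and 1 from young mice (2 months, tissue of 4 animals pooled), all untreated and of the same strain. The barcodes carry a library number that no label ties to an age, so libraries 1 and 2 are given by number and no ages are compared.

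DNA replication starts when the Mcm2 to Mcm7 ring, the core of the replicative helicase, is loaded onto DNA by Cdc6 and Cdt1 and is later switched on by Cdc45 and the GINS complex. The primase and polymerase alpha complex then lays down primers, the sliding clamp Pcna holds the polymerases, and enzymes of nucleotide synthesis and histone supply keep pace. Many of these genes are transcribed under E2F factors before and during S phase. In the SVZ, quiescent stem cells divide rarely, activated stem cells and transit amplifying progenitors divide often, and neuroblasts divide while they begin to migrate to the olfactory bulb.

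By role, the members comprise 6 helicase subunits (Mcm2, Mcm3, Mcm4, Mcm5, Mcm6 and Mcm7) and 5 factors that load or switch on the helicase (Cdc6, Cdt1, Cdc45, Gins1 and Gins2). A further 8 act in priming, at the clamp or at the fork (Pola1, Prim1, Pcna, Rfc2, Rfc4, Fen1, Rpa2 and Tipin). The nucleotide supply genes are 4 (Tyms, Rrm1, Rrm2 and Dut), as are those of chromatin and histone supply (Chaf1a, Chaf1b, Slbp and Hells). Ung and Msh6 act in base excision and mismatch repair, and Dtl and E2f8 are regulators of the programme.

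RefSeq promoter windows (GRCm38.p6, 250 bases before to 50 after an annotated start) were found for 26 of the 31 members, in 28 windows. The E2F-type letters TTTCCCGC, TTTCGCGC, TTTGCCGC and TTTGGCGC were searched on both strands, with overlapping matches each counted. They stood in 10 of the 28 windows (35.7%), against 2.26% of all 32851 windows of the same length. The share was 31.4% in 70 windows of 57 genes, from a list of 71 other replication genes used below. Windows of the members are rich in CG, and among all windows with at least as many CG as the poorest member window (8), 4.23% held such letters. The 4 windows printed here are given 5′ to 3′ on the gene's strand, with E2F-type letters in capitals. They are the window with the most matches, a regulator with a match just before its start, and the genes at both ends of the comparison of mitotic with other activated cells below. Mcm6 lies at chr1:128359656-128359955 (minus strand), Dtl at chr1:191575495-191575794 (minus strand), Ung at chr5:114130185-114130484 (plus strand) and E2f8 at chr7:48881547-48881846 (minus strand).
Mcm6: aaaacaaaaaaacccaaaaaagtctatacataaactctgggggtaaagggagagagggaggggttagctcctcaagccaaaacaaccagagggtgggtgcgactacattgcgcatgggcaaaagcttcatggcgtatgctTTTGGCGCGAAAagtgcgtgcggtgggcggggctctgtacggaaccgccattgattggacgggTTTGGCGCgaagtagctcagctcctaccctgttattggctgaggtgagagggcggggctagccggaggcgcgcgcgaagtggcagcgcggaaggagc
Dtl: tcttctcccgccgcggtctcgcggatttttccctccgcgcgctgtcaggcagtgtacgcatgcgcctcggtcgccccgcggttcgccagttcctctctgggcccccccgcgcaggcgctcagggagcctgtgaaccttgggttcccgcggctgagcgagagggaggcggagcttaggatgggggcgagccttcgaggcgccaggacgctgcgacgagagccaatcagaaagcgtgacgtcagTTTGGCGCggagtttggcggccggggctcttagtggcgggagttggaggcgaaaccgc
Ung: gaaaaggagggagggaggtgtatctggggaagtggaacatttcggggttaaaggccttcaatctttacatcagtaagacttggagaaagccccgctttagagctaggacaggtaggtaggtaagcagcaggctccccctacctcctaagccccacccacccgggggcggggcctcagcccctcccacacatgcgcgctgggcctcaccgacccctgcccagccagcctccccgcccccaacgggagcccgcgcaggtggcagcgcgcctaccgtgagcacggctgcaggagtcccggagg
E2f8: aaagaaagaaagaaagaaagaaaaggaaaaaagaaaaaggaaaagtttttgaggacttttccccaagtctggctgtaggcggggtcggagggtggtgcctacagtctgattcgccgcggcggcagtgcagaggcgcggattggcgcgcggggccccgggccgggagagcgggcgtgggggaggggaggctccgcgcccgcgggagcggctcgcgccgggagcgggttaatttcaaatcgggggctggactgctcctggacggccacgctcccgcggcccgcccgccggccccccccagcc

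The Mcm6 window held 3 matches, of which a pair overlapped on opposite strands, beginning 110 and 106 bases before the start. Its other match began 47 bases before the start. Mcm3, Mcm5 and Mcm7 held 2 matches each, and the Dtl match began 8 bases before the start. Cdc6, Cdt1, Pola1, Hells and Msh6 held 1 each. The Ung and E2f8 windows held none of these letters, which says nothing about whether an E2F factor binds them. TTTGAA, the core of the CHR element of mitotic genes, stood in 14.3% of member windows on either strand. It stood in 17.9% of all windows, 10.4% of the CG-rich windows above and 67.3% of 55 windows of G2 and M phase genes. Those 55 windows were of 49 genes, from a list of 58. CCAAT stood in 64.3% of member windows, against 37.4% of all windows and 36% of the CG-rich ones. It stood in 54.3% of the windows of the other replication genes and 76.4% of those of the G2 and M phase genes.

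**Figure D1:**
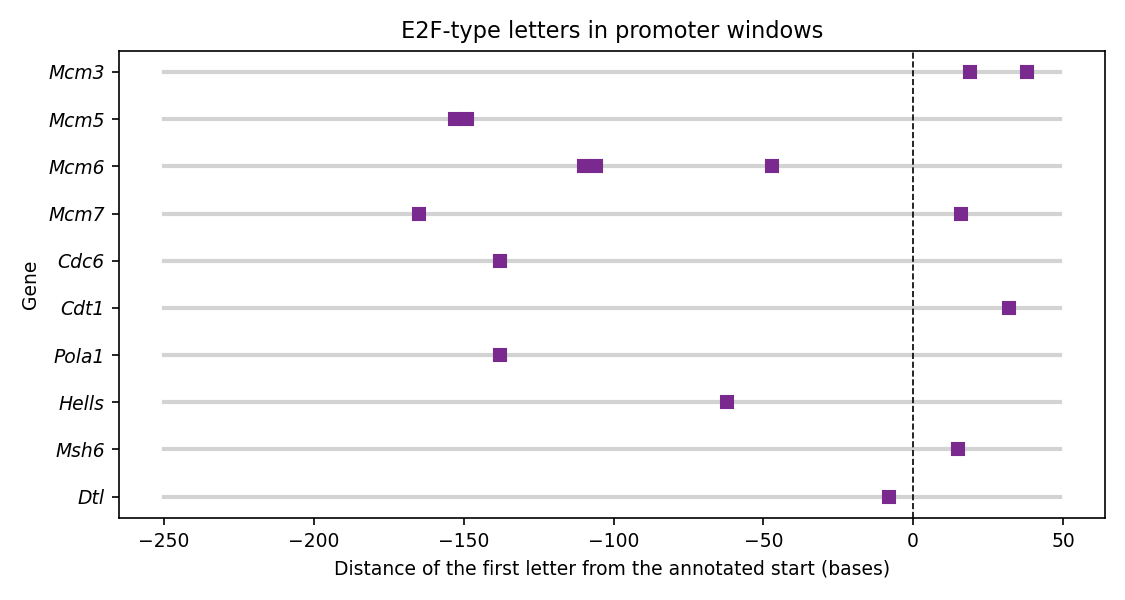
Distance in bases of the first letter of each E2F-type match (squares) from the annotated start (dashed line), for the 10 members with a match; grey bars show the window searched. Matches lie on both sides of the start, and those of Mcm5 and part of those of Mcm6 overlap.

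Library 1 had 1849 barcodes and 10440891 UMIs, and library 2 had 2088 barcodes and 13330251 UMIs. After removal of low-quality barcodes and of 15 and 11 Scrublet doublets, 1825 and 2064 cells remained; 4 barcode sequences occurred in both libraries. Clusters, built without the cell cycle lists used here and without histone genes, were named from fixed markers. Astrocyte-like cells (quiescent stem cells or astrocytes, which were not separated) numbered 683 in library 1 and 585 in library 2. Activated cells (activated stem cells or transit amplifying progenitors) numbered 500 and 747, and neuroblasts 370 and 525. The largest activated cluster was led by stress and immediate early genes such as Atf3, Arc and Fos, and another by Helt and Gsx2, with the neuronal gene Rbfox3 and the member Ung among its 10 leading genes. Cluster 7, with 140 cells in library 1 and 109 in library 2 and led by Cyr61 and Junb, stayed unnamed. A cell was called mitotic when it had at least 3 UMIs of Top2a plus Mki67, neither of which is a member. Every cell below that is called other. Each library is 1 sample, so nothing was tested across samples. Intervals printed for levels, ratios and shares are exact at 95% and cover counting error only. Levels are CPM, the UMIs of a gene per 1000000 UMIs of a group; they are 3′ tag counts and are not compared between genes.

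Activated cells had more RNA of every member than astrocyte-like cells. In both libraries all 31 members were at least 1.5-fold higher in activated cells, while 33.2% of the 11367 genes measured in library 1 and 29.5% of 11635 in library 2 were. Genes were measured where both groups together had at least 20 UMIs, which all 31 members passed here. The median log2 ratio over the members was 2.62 in library 1 and 1.94 in library 2, against 0.09 and 0.01 over all genes. Whole classes include their mitotic cells, and among astrocyte-like cells these were 1 in library 1 and 6 in library 2. Those cells held 60 of the 1673 and 555 of the 2516 member UMIs of the class. Activated cells were also deeper, with a median of 8799 UMIs per cell in library 1 and 8483 in library 2, against 3464 and 3529 in astrocyte-like cells. After every cell was thinned to 2000 UMIs, the member medians were 2.49 and 2.24.

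Among helicase genes, Mcm2 stood at 75.2 CPM (interval 67.4 to 83.6) in library 1 and 92.0 (84.8 to 99.6) in library 2 in activated cells, against 15.1 (10.6 to 20.8) and 23.3 (17.5 to 30.5) in astrocyte-like cells. Mcm6 had 125 and 143 CPM in activated cells, against 17.1 and 42.3 in astrocyte-like cells. All 6 subunits lay between log2 1.63 and 2.94 above astrocyte-like cells. Cdc6, which loads the ring, was at 28.5 and 29.3 CPM in activated cells, against 1.22 and 4.40 in astrocyte-like cells. Its ratio in library 1, the highest of all members at log2 4.54, rests on 3 UMIs in astrocyte-like cells and has an interval of 2.97 to 6.84. Cdt1, its partner in loading, had 46.0 and 56.7 CPM in activated cells, against 3.66 and 11.9. Gins2, a subunit of the GINS complex, had 68.7 and 72.7 CPM in activated cells, against 13.8 and 26.9 in astrocyte-like cells.

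The clamp gene Pcna reached 330 CPM (313 to 347) and 340 CPM (326 to 354) in activated cells, against 52.9 (44.2 to 62.9) and 76.6 (65.7 to 88.9) in astrocyte-like cells, folds of 6.23 and 4.44. Rfc2, a subunit of the clamp loader, had 137 and 153 CPM in activated cells, against 61.1 and 81.03 in astrocyte-like cells. Its log2 ratio was the second lowest in library 1 (1.17) and the lowest in library 2 (0.92). Prim1, the catalytic subunit of primase, had 51.7 and 53.8 CPM in activated cells, against 17.1 and 26.9 in astrocyte-like cells, log2 ratios of 1.60 and 1.00. Rrm2, the regulated subunit of ribonucleotide reductase, was at 294 (278 to 310) and 329 (315 to 343) CPM in activated cells, against 17.9 (13.0 to 24.1) and 59.9 (50.2 to 70.8) in astrocyte-like cells. Tyms, thymidylate synthase, had 131 and 138 CPM in activated cells, against 14.7 and 37.9. For both genes activated cells of the libraries were close to each other, and astrocyte-like cells of library 1 were below those of library 2.

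Hells, a chromatin remodeller, was 17.3-fold and 6.79-fold higher in activated cells, at 148 and 156 CPM against 8.55 and 22.9 CPM in astrocyte-like cells. In library 2, 27 of its 52 UMIs in astrocyte-like cells were in the 6 mitotic ones, and other astrocyte-like cells had 11.4 CPM. Chaf1a, the large subunit of the histone chaperone CAF-1, had the highest log2 ratio of library 2, 4.09, at 52.4 CPM in activated cells against 3.08 CPM from 7 UMIs in astrocyte-like cells. Slbp, which binds the histone mRNA stem-loop, had 350 and 372 CPM in activated cells, against 81.0 and 102 in astrocyte-like cells. Dtl, a ubiquitin ligase subunit that has Cdt1 degraded in S phase, had 104 (94.7 to 114) and 161 (151 to 171) CPM in activated cells, against 6.52 (3.72 to 10.6) and 18.9 (13.7 to 25.5). E2f8, a repressor of the E2F family, had 22.8 and 28.1 CPM in activated cells, against 1.63 and 6.17 in astrocyte-like cells. Msh6, a mismatch recognition protein, was the lowest in library 1, with a log2 ratio of 0.85 (interval 0.09 to 1.67) from 63 UMIs in activated cells and 19 in astrocyte-like cells.

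**Figure D2:**
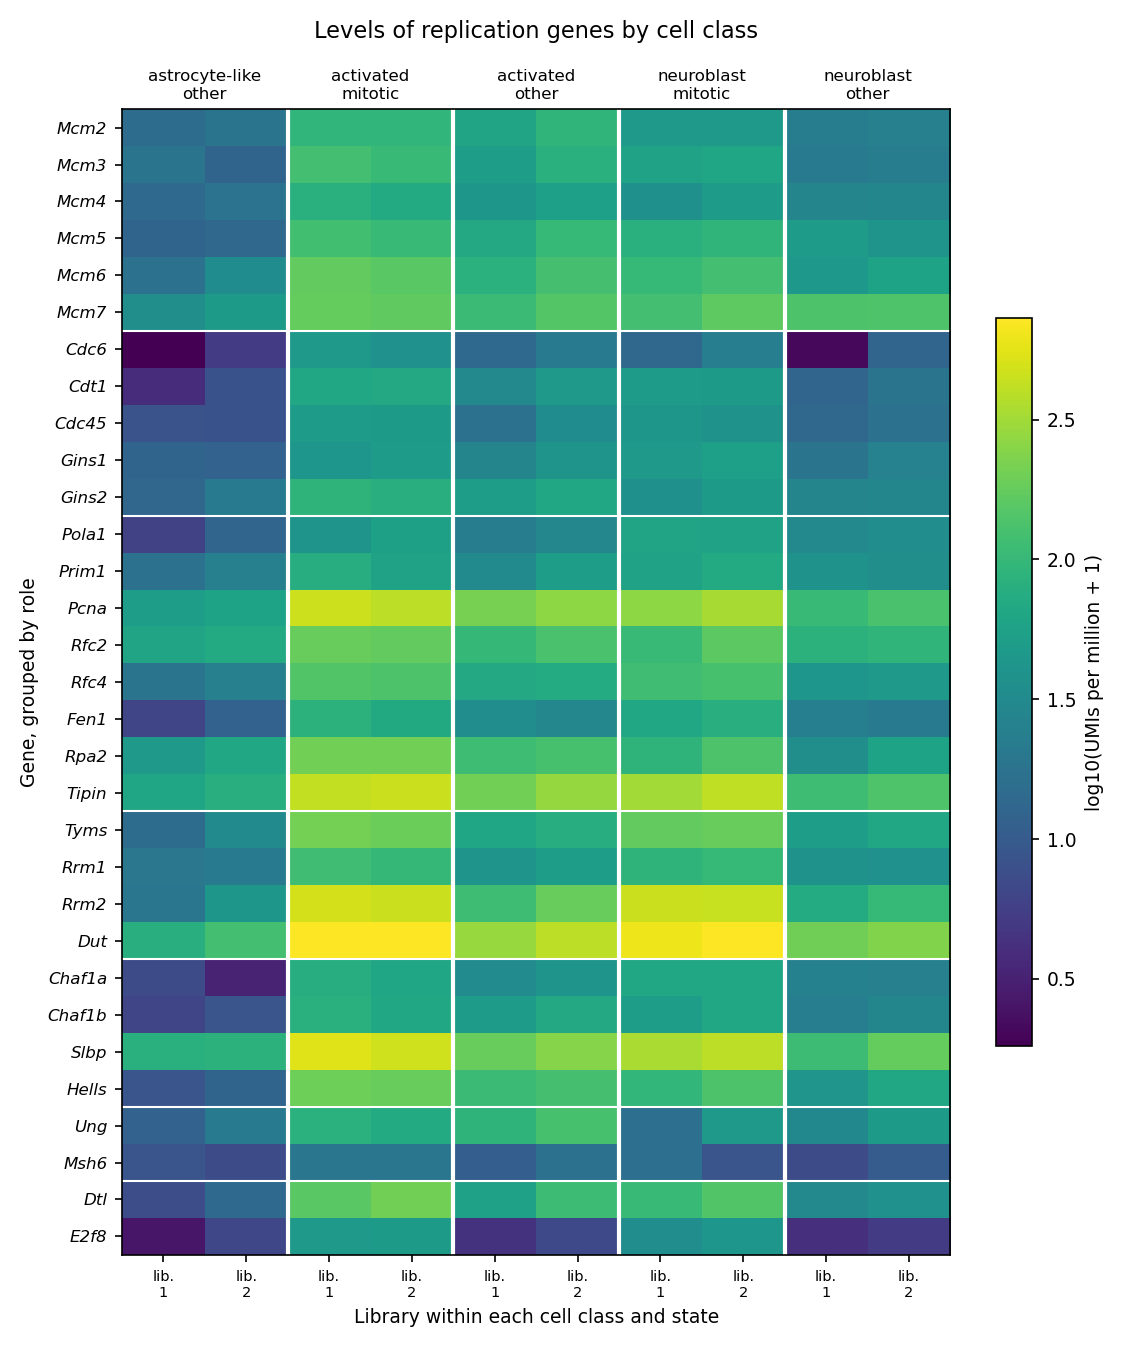
Levels of the 31 members as log10(CPM + 1), with genes in rows grouped by role (white lines) and libraries in columns within each cell class and state. Astrocyte-like other cells are the darkest columns for most genes, mitotic activated cells the brightest, and Ung is brightest in other activated cells.

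The gap was also present with mitotic cells set apart. Other activated cells had a member total of 2352 and 3213 CPM, against 660 and 895 CPM in other astrocyte-like cells. Of 30 members measured in library 1, 29 were at least 1.5-fold higher in other activated cells (30.9% of all genes), and of 31 in library 2, 30 were (28.2% of all genes). The median log2 ratio was 2.04 in library 1 and 1.83 in library 2. Ung had 89.0 (77.4 to 102) and 128 (115 to 141) CPM in other activated cells, against 11.04 (7.28 to 16.1) and 21.01 (15.4 to 28.0) in other astrocyte-like cells. E2f8 was the exception: other activated cells had 3.34 (1.44 to 6.59) and 5.79 (3.37 to 9.28) CPM, against 1.64 (0.446 to 4.19) and 5.48 (2.83 to 9.57) in other astrocyte-like cells. Its intervals overlapped in both libraries, and with under 20 UMIs in library 1 it was the member not measured there. Msh6 did not reach 1.5-fold in library 1, with a log2 ratio of 0.37.

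Shares of all genes called in both libraries are not given. Counts of other replication genes in both libraries are therefore not set against all genes, here or below. Of 71 other replication genes, 63 were at least 1.5-fold higher in activated cells in both libraries and 2 were lower in both. Of the 68 with at least 50 UMIs over both groups in each library, the highest by the mean of both libraries were the nuclease gene Exo1, at 28.1 and 26.7 CPM in activated cells against 0.407 and 2.20 in astrocyte-like cells, the helicase gene Brip1, at 15.03 and 13.4 against 0.407 and 1.32 CPM, and the kinase regulator Dbf4, at 90.9 and 101 against 5.29 and 7.05 CPM. The lower ones were Pold4, an accessory subunit of polymerase delta, at 13.5 and 11 against 42.8 and 38.3 CPM, and Tonsl, at 104 and 102 against 209 and 198 CPM. Orc5 was within 1.5-fold, at 10.2 and 11.9 CPM against 10.99 and 14.97 CPM. The 0.407 CPM of Exo1 and of Brip1 in library 1 is 1 UMI each, and the log2 interval of Exo1 there is 3.60 to 11.42.

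With member UMIs counted at equal depth (2000 UMIs per cell), cells with at least 3 were scarce among astrocyte-like cells and common among mitotic ones. The mitotic call used the counts before thinning, so that call was not made at equal depth. Among mitotic activated cells, 96.2% in library 1 (92.3 to 98.5%) and 93.8% in library 2 (90.7 to 96.1%) had them, against 61.2% (55.6 to 66.7%) and 76.2% (71.7 to 80.3%) of other activated cells. Among mitotic neuroblasts the shares were 79.8% (70.2 to 87.4%) and 90.0% (85.3 to 93.7%), against 39.0% (32.9 to 45.4%) and 43.9% (38.1 to 49.9%) of other neuroblasts. Other astrocyte-like cells had 13.6% (10.9 to 16.6%) and 21.5% (18.1 to 25.2%). Mature oligodendrocytes, which do not divide and were present in spite of the sort against O4, gave a background of 5.43% in library 1 (5 of 92 cells, 1.79 to 12.2%) and 12.5% in library 2 (1 of 8 cells). Before thinning, the medians were 4210 and 5119 UMIs in these oligodendrocytes and 3460 and 3483 in other astrocyte-like cells. Without thinning, 32.8% and 50.4% of other astrocyte-like cells passed, against 41.4% and 77.8% of oligodendrocytes. The intervals of astrocyte-like cells and oligodendrocytes overlapped in both libraries, and the oligodendrocyte interval of library 2 was as wide as 0.316 to 52.7%. Overlap does not show that the shares are equal. The difference was not tested, so the astrocyte-like shares are not read as expression above background. Left out as too shallow were 78 and 35 other astrocyte-like cells, 30 and 15 other neuroblasts, 4 and 5 other activated cells, 7 and 1 oligodendrocytes, and no mitotic activated cell or mitotic neuroblast.

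**Figure D3:**
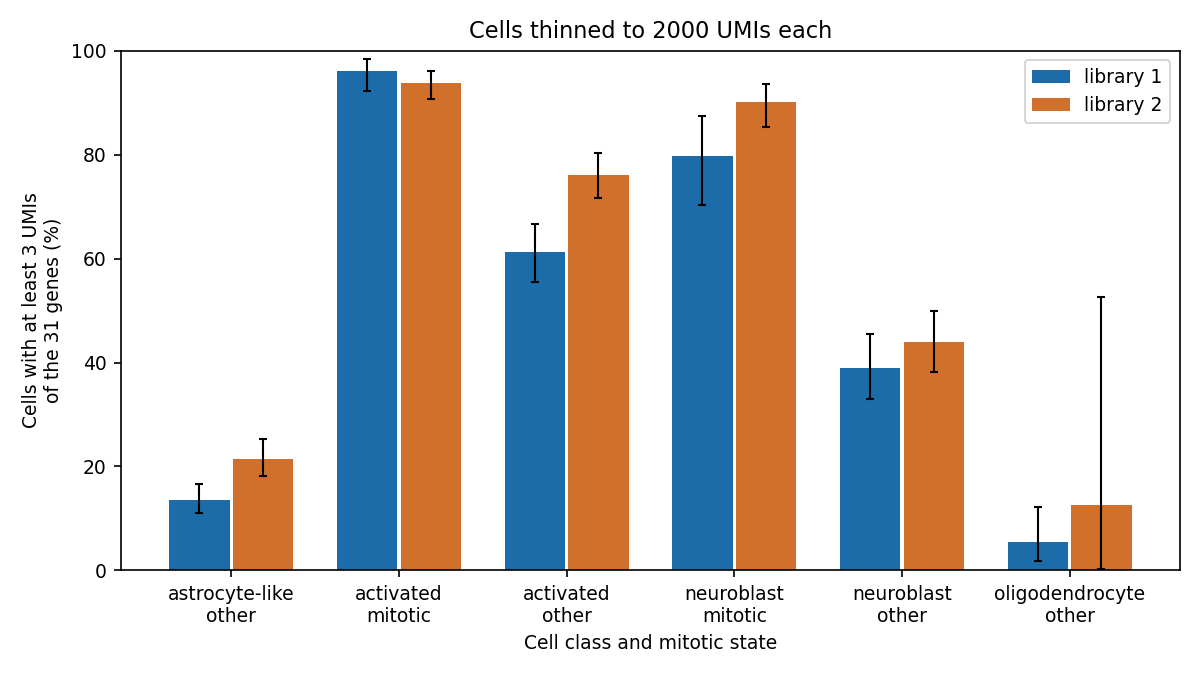
Percent of cells with at least 3 UMIs of the 31 genes after thinning each cell to 2000 UMIs, by cell class, mitotic state and library (bars), with exact 95% intervals (lines). The mitotic state was called before thinning. Mitotic activated cells stand at 96.2% and 93.8%, and other astrocyte-like cells at 13.6% and 21.5%, overlapping the intervals of oligodendrocytes.

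Gene by gene, other astrocyte-like cells also stood on both sides of the oligodendrocytes. In library 1, where 23 members had 20 or more UMIs over both types and none at 0, 8 were at least 1.5-fold higher in other astrocyte-like cells, 4 were at least 1.5-fold lower and 11 were within 1.5-fold. Of the 9206 genes placed in the same way, 37% were at least 1.5-fold higher and 20.7% at least 1.5-fold lower, so the shares of the members were near those of all genes. The higher ones were Mcm2, Mcm3, Mcm6, Cdc45, Slbp, Hells, Ung and Msh6, and the lower ones Mcm4, Pcna, Rfc2 and Fen1. Mcm2 had 14.3 CPM from 35 UMIs against 2.32 CPM from 1 UMI, a log2 ratio of 2.62 with an interval of 0.05 to 7.97. Fen1, the flap endonuclease, had 5.32 CPM against 23.2 CPM. In library 2 the 9 oligodendrocytes held 34 member UMIs in all, and 19 members could not be placed. Another 2 oligodendrocytes of library 1 counted as mitotic, with a median of 27292 UMIs per cell, and are left out of these values.

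Among activated cells, mitotic cells had the higher levels of most members, but the size of the gap ran from far above 1.5-fold to none. In library 1, 30 of the 31 members were at least 1.5-fold higher in mitotic activated cells, where 12.1% of 10177 genes were, and in library 2, 15 were, where 9.93% of 10695 genes were. The 30 of library 1 were all members but Ung, so their overlap with the 15 of library 2 is no sign of agreement. Those 15 were Cdc6, Pola1, Pcna, Rfc4, Fen1, Rpa2, Tipin, Tyms, Rrm1, Rrm2, Dut, Chaf1a, Slbp, Dtl and E2f8. The median log2 ratio was 1.11 in library 1 and 0.57 in library 2, against -0.02 and 0.00 over all genes. Mitotic activated cells numbered 184 in library 1 and 339 in library 2, with medians of 11302.5 and 10666 UMIs, against 316 and 408 other activated cells with medians of 7710.5 and 7316.5. After thinning to 2000 UMIs the member medians were 1.27 and 0.79.

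E2f8 had the highest ratio in both libraries. Mitotic activated cells had 44.6 (36.1 to 54.5) and 46.3 (39.5 to 53.8) CPM, against 3.34 (1.44 to 6.59) and 5.79 (3.37 to 9.28) CPM in other activated cells, a 13.3-fold and a 7.99-fold difference. Of all E2f8 UMIs of activated cells, 92.2% and 90.8% were in mitotic cells. Rrm2 came next, at 498 (468 to 528) and 451 (429 to 473) CPM in mitotic activated cells, against 113 (99.8 to 127) and 178 (163 to 194) in other activated cells. Tyms followed in library 2, at 207 and 190 against 62.7 and 75.3 CPM. Dut, which keeps uracil out of DNA, had 718 CPM in mitotic activated cells of both libraries, against 290 and 398 in other activated cells. All 4 genes of nucleotide supply were past 1.5-fold in both libraries.

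The helicase genes had small gaps in library 2. Mcm2 was at 92.9 (80.4 to 107) and 92.5 (82.9 to 103) CPM in mitotic activated cells, against 59.3 (50.0 to 69.9) and 91.3 (80.7 to 103) CPM in other activated cells, so the gap was present in library 1 and within counting error in library 2. Mcm6 had 171 and 158 CPM, against 83.6 and 124. The 6 subunits had log2 ratios between 0.65 and 1.22 in library 1 and between 0.02 and 0.41 in library 2, and none reached 1.5-fold in library 2. Pcna stood at 463 (435 to 493) and 401 (381 to 422) CPM in mitotic activated cells, against 211 (193 to 230) and 265 (247 to 284). Gins2 had 88.7 and 79.2 CPM against 51.0 and 64.7, Cdt1 had 64.8 and 66.5 against 29.2 and 44.6, and Hells 194 and 181 against 107 and 125. Cdc6 had 46.00 and 36.6 CPM in mitotic activated cells, against 12.95 and 20.4 in other activated cells, and Slbp 539.8 and 476 against 181 and 244. In each of these 6 genes from Pcna on, other activated cells of library 1 were the lowest.

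Ung, the glycosylase that removes uracil from DNA, stood apart. Mitotic activated cells had 83.6 (71.7 to 96.8) and 69.5 (61.2 to 78.7) CPM, against 89.0 (77.4 to 102) and 128 (115 to 141) CPM in other activated cells. It was the 1 member at least 1.5-fold lower in library 2 (9.91% of all genes were; in library 1, 13.7% were and no member was), with a 1.84-fold difference (log2 -0.88, interval -1.11 to -0.64) and within counting error in library 1 (log2 -0.09, -0.39 to 0.20). Mitotic cells held 45.5% and 40.1% of its UMIs in activated cells, the lowest share of any member, against 67.1% and 66.1% for all members together and 47.1% and 55.2% for all genes. Chaf1b was the other member below 0 in library 2, at log2 -0.05.

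Of the 71 other replication genes, 40 were at least 1.5-fold higher in mitotic activated cells in both libraries and none was lower in both. Of the 66 with at least 50 UMIs over both groups in each library, the highest by the mean of both libraries were the repressor gene E2f7, at 37.1 and 34.1 CPM in mitotic activated cells against 5.85 and 6.13 in other activated cells, the thymidine kinase gene Tk1, at 102 and 97.8 against 12.5 and 31.7 CPM, and Ticrr, at 30.98 and 36.3 against 6.27 and 8.18 CPM. Pold4 was the lowest, at 9.39 and 9.97 against 17.1 and 12.3 CPM, followed by Orc4, at 51.2 and 47.4 against 59.3 and 50.8 CPM, and Tonsl, at 100.4 and 95.9 against 107.8 and 110.4 CPM.

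**Figure D4:**
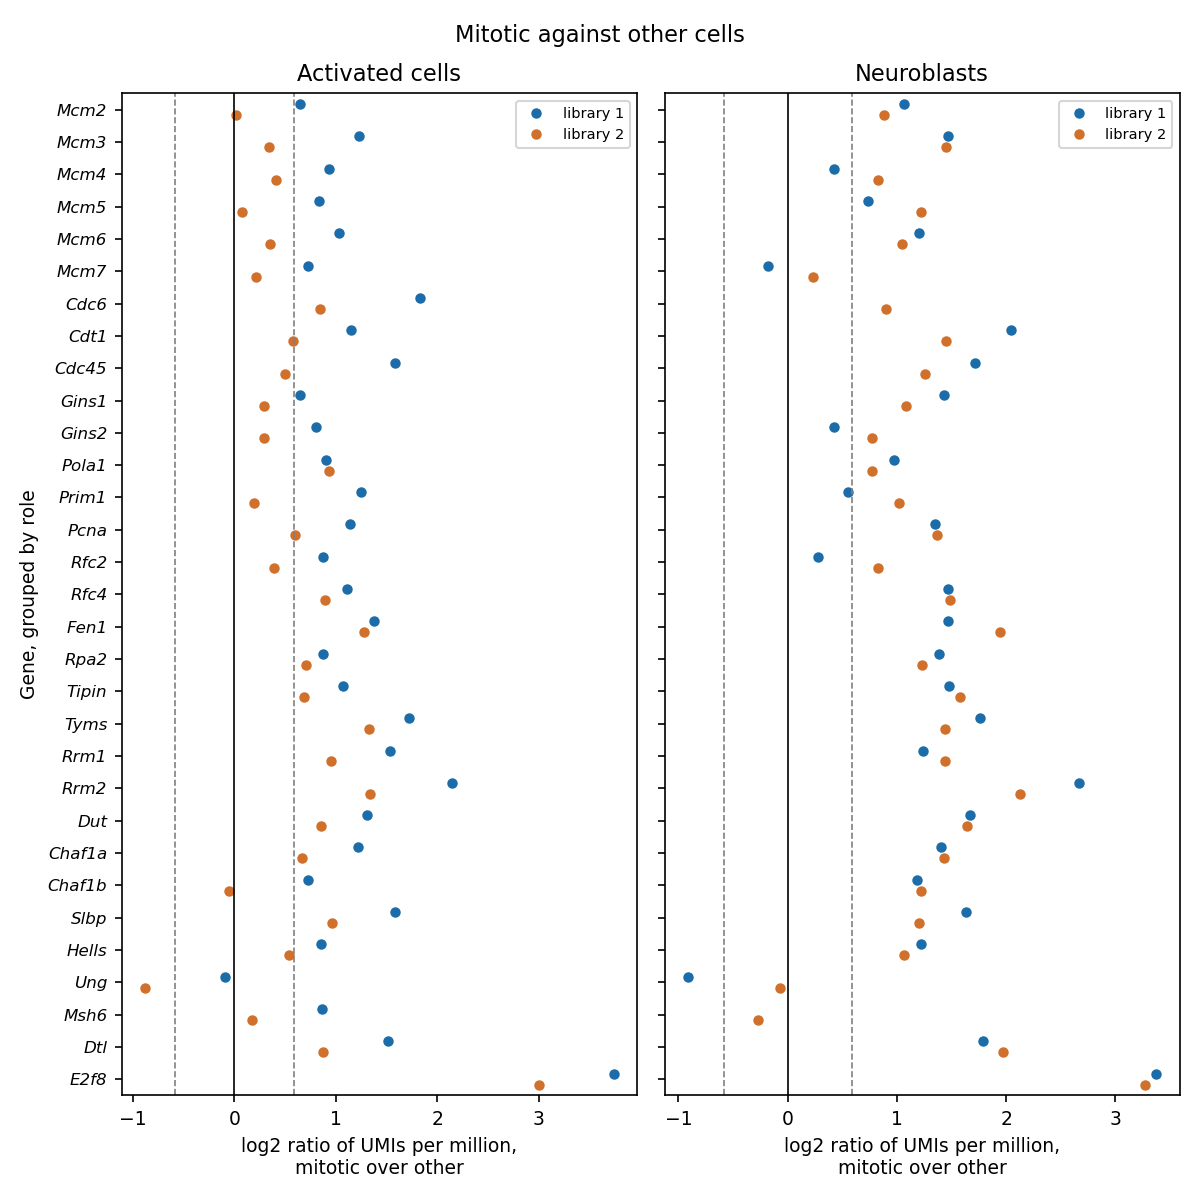
Log2 ratio of CPM, mitotic over other cells, for each of the 31 members in activated cells (left) and neuroblasts (right) of both libraries; dashed lines mark 1.5-fold, and genes under 20 UMIs are not drawn. E2f8 and Rrm2 lie farthest to the right in both classes, Ung farthest left in activated cells, and library 2 lies left of library 1 for most genes in activated cells.

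A finer grouping of activated cells by Top2a plus Mki67 UMIs, chosen after the data had been seen, gave the highest member totals below the top group. The member total in library 1 was 2004 CPM at 0 UMIs, 2931 at 1 to 2, 5144 at 3 to 5, 5829 at 6 to 11 and 5162 at 12 or more. In library 2 it was 2737, 3689, 5164, 6086 and 4378 CPM in the same groups. Each group had 47 to 218 cells. The groups are of raw UMIs and give no order in time. All 31 members were higher at 3 to 5 UMIs than at 0 in both libraries, as were 49.2% of 10175 genes in library 1 and 51.9% of 10693 in library 2. The highest level was in the group of 6 to 11 UMIs for 19 members in library 1 (18.4% of all genes) and 24 in library 2 (21.2%).

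Ung peaked in lower groups, at 3 to 5 UMIs in library 1 (194 CPM) and 1 to 2 in library 2 (144 CPM). At 12 or more UMIs it stood at 36.1 (25.1 to 50.2) and 27.8 (20.5 to 37.0) CPM, below the 72.9 (59.9 to 88.0) and 112 (95.4 to 130) CPM of cells with none. Ung was the only member in library 1 with less at 12 or more UMIs than at 0 (53.1% of all genes had less), and in library 2 Mcm2, Mcm5, Gins2 and Chaf1b joined it (51.6%). Mcm2 in library 2 was highest at 3 to 5 UMIs (124 CPM) and had 71.7 CPM at 12 or more, against 94.1 CPM at 0. Rrm2 had 519 and 421 CPM at 12 or more UMIs, against 80.3 and 135 CPM at 0. E2f8 had 47.4 and 38.5 CPM at 12 or more, against 0.669 (from 1 UMI) and 5.46 CPM at 0.

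**Figure D5:**
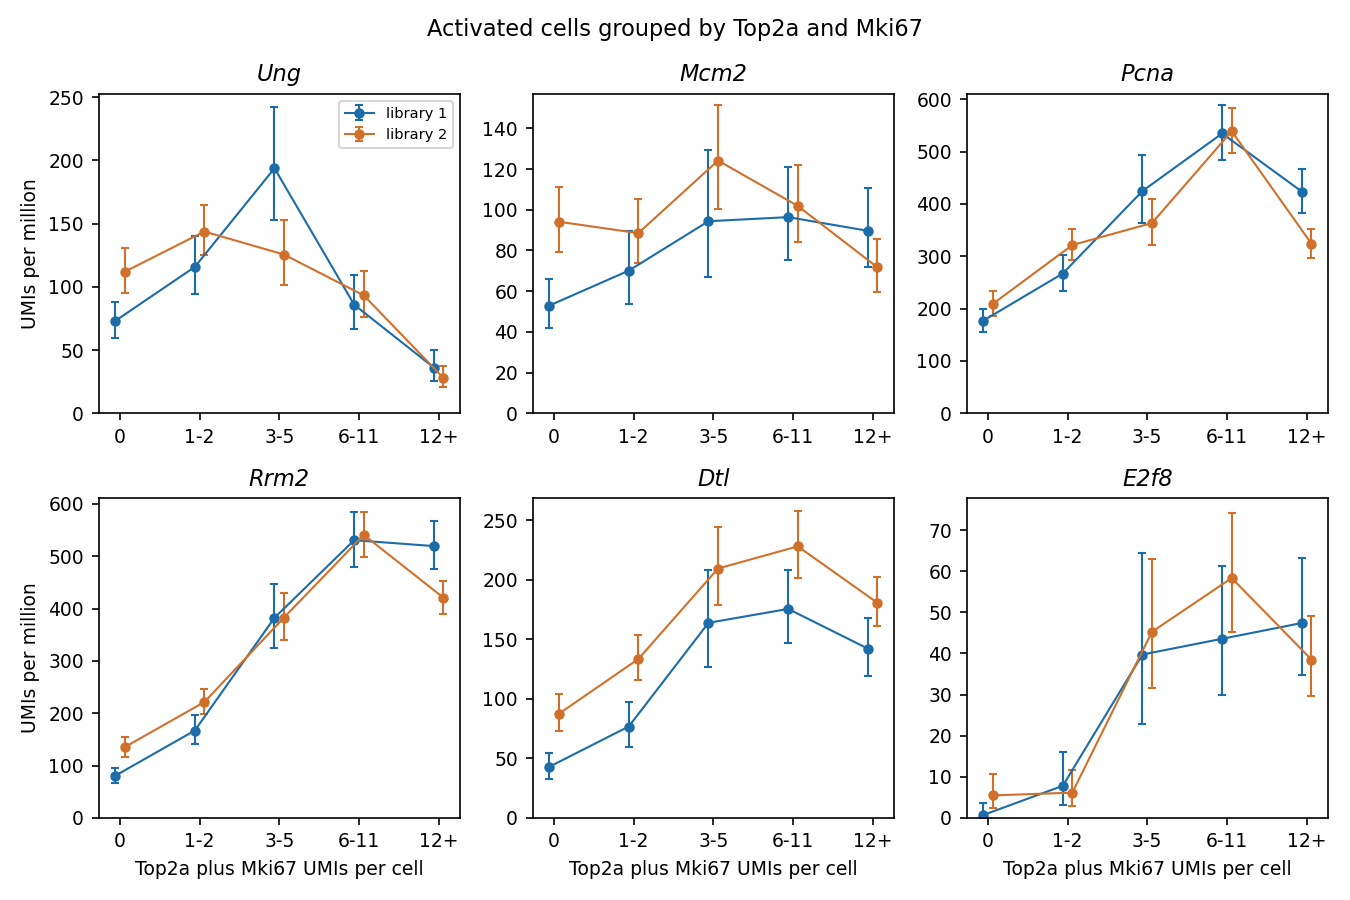
Levels (CPM, with exact 95% Poisson intervals) of 6 members in activated cells grouped by their Top2a plus Mki67 UMIs, in both libraries. Ung peaks at 1 to 5 UMIs and is lowest at 12 or more, while Pcna, Dtl and Rrm2 peak at 6 to 11 UMIs.

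Neuroblasts had less RNA of many members than activated cells, and no member was 1.5-fold higher in them, where 16.8% of all genes in library 1 and 13.3% in library 2 were. At least 1.5-fold lower in neuroblasts were 14 members in library 1 (23.9% of 10832 genes) and 10 in library 2 (19% of 11405 genes). Of these, 9 were shared: Mcm2, Mcm3, Mcm4, Cdc6, Cdt1, Gins2, Rpa2, Ung and Dtl. The share of all genes lower in both libraries is not given, so this overlap is not set against all genes. The median log2 ratio was -0.57 in library 1 and -0.38 in library 2, against -0.08 and -0.04 over all genes. The 58 G2 and M phase genes had medians of 0.60 and 0.38, on the other side of 0. Neuroblasts were shallower, with medians of 3587 and 5429 UMIs, and 94 and 221 of them were mitotic. After thinning to 2000 UMIs, 23 members in library 1 and 18 in library 2 were at least 1.5-fold lower, and by mean CPM per cell 25 and 16. The counts also depended on the clustering: at resolution 2 they were 4 and 5, with medians of -0.082 and -0.13. Shares and medians of all genes under such alternative settings are not given here or below. The member values under them are therefore not set against all genes.

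Ung was at 22.6 (16.1 to 30.96) and 45.6 (38.5 to 53.6) CPM in neuroblasts, against 86.4 (78.1 to 95.4) and 95.7 (88.3 to 103) in activated cells. Mcm2 had 31.9 (24.1 to 41.6) and 36.9 (30.6 to 44.1) CPM in neuroblasts, against 75.2 (67.4 to 83.6) and 92.0 (84.8 to 99.6) in activated cells. Cdc6 had 6.39 and 18.6 CPM against 28.5 and 29.3, and Rpa2, a subunit of the single-strand binding protein, 59.2 and 108 against 156 and 169. For each of these 4 genes the intervals of the classes did not overlap in either library. All 4 were among the 9 members listed above as lower, and the share of all genes without overlap is not given. Rrm2, by contrast, had 246 (223 to 270) and 317 (298 to 337) CPM in neuroblasts, against 294 (278 to 310) and 329 (315 to 343) in activated cells, and Mcm7 had 128 and 156 against 140 and 158. Pcna had 176 and 261 CPM in neuroblasts, against 329.6 and 340.0 in activated cells, Mcm6 69.7 and 97.7 against 125 and 143, and Cdt1 28.5 and 35.96 against 45.98 and 56.7. Gins2 had 30.8 and 39.7 CPM in neuroblasts, against 68.7 and 72.7 in activated cells, Dtl 63.3 and 105 against 104 and 161, and Hells 65.04 and 110.4 against 148 and 156. Slbp had 213 and 322 CPM in neuroblasts, against 349.7 and 372 in activated cells, Tyms 107 and 138 against 131 and 138, and E2f8 16.8 and 27.9 against 22.8 and 28.1. Each of these 9 genes was lower in neuroblasts of library 1 than in those of library 2. Pola1, the catalytic subunit of polymerase alpha, was the member with the highest ratio in both libraries, at 43.0 (33.7 to 53.9) and 48.4 (41.1 to 56.6) CPM against 30.1 (25.2 to 35.6) and 42.0 (37.2 to 47.3).

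Members were lower in neuroblasts by the median on both sides of the mitotic split, least so in mitotic cells of library 2. Other neuroblasts had a member total of 1455 and 1786 CPM, against 2352 and 3213 CPM in other activated cells, and 19 and 22 members were at least 1.5-fold lower (27% and 24% of all genes) and none higher (21.2% and 20.5%). The medians were -0.67 in library 1 and -0.82 in library 2, against -0.06 and -0.02 over all genes, and at resolution 2 the counts were 8 and 12. Mitotic neuroblasts had 3745 and 4467 CPM, against 5396 and 5090 CPM in mitotic activated cells, and 14 and 7 members were at least 1.5-fold lower (22.5% and 16.2% of all genes) and none higher (12% and 9.26%). The shared ones were Mcm2, Mcm3, Cdc6, Gins2, Rpa2 and Ung, an overlap that is likewise not set against all genes. Among mitotic cells Ung had 15.3 (7.91 to 26.7) and 44.7 (36.1 to 54.9) CPM in neuroblasts, against 83.6 (71.7 to 96.8) and 69.5 (61.2 to 78.7) in activated cells. Mcm2 had 44.6 and 44.2 CPM against 92.9 and 92.5, nearly the same in both libraries. The medians over all members were -0.53 in library 1 and -0.19 in library 2, against -0.12 and -0.06 over all genes, and at resolution 2 the count of library 1 was 7.

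Among the 71 other replication genes, none was 1.5-fold higher in neuroblasts in either library. At least 1.5-fold lower were 27 in library 1 and 10 in library 2, and 10 were lower in both, a count not read as an excess over all genes. Of the 68 with at least 50 UMIs over both groups in each library, by the mean of both libraries Pola2 (12.2 and 35.0 against 45.3 and 53.3 CPM), Ccne1 (12.8 and 20.2 against 32.5 and 36.7 CPM) and Pole2 (5.23 and 13.3 against 17.9 and 17.9 CPM) were the lowest. Ticrr (25.6 and 31.9 against 17.9 and 23.7 CPM), E2f7 (26.7 and 29.5 against 20.6 and 21.5 CPM) and Pold4 (15.7 and 13.3 against 13.5 and 11 CPM) were the highest. Pola2 is the partner subunit of Pola1 in the polymerase alpha complex.

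Among neuroblasts too, mitotic cells had the higher levels of most members. Of 29 members measured in library 1, 23 were at least 1.5-fold higher in mitotic neuroblasts (16.2% of 7738 genes), and of 31 in library 2, 28 were (16.5% of 9130 genes). Lower by 1.5-fold were 1 member in library 1, Ung (22.9% of all genes), and none in library 2 (18.2%). The median log2 ratios were 1.39 and 1.22, against -0.10 and -0.05 over all genes. Depth differed here too, with medians of 8563 and 9166 UMIs in mitotic neuroblasts, against 2963 and 3277.5 in other neuroblasts. E2f8 had 33.2 (21.7 to 48.6) and 41.3 (33.0 to 51.1) CPM, against 3.20 (0.660 to 9.35, from 3 UMIs) and 4.28 (1.39 to 9.98). Its log2 ratio in library 1 was 3.37, with an interval of 1.67 to 5.74. Rrm2 had 454 and 440 CPM against 71.4 and 101, and Dtl 103 and 144 against 29.9 and 36.8. Pcna had 263 and 335 CPM in mitotic neuroblasts, against 103 and 130.0 in other neuroblasts, Tyms 173 and 179 against 51.2 and 65.9, and Slbp 338 and 405 against 109 and 176. Hells had 94.4 and 136 CPM in mitotic neuroblasts, against 40.5 and 65.02 in other neuroblasts, Mcm2 44.6 and 44.2 against 21.3 and 23.96, and Mcm6 101 and 120.1 against 43.7 and 58.2. In all 6 the mitotic neuroblasts of each library stood above both groups of other neuroblasts. Cdt1 had 48.5 and 46.7 CPM in mitotic neuroblasts, against 11.7 and 17.1 in other neuroblasts, Gins2 35.7 and 46.7 against 26.7 and 27.4, and Cdc6 12.8 and 22.4 against 1.07 and 11.98, where Cdc6 in library 1 was under 20 UMIs.

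Mcm7 and Ung did not follow. Mcm7 was at 120 and 165 CPM in mitotic neuroblasts, against 135 and 140 in other neuroblasts, within 1.5-fold in both libraries. Ung had 15.3 (7.91 to 26.7) and 44.7 (36.1 to 54.9) CPM, against 28.8 (18.97 to 41.9) and 47.1 (35.4 to 61.2), with overlapping intervals in both libraries. Msh6, the lowest of library 2, had 15.3 and 7.78 CPM in mitotic neuroblasts, against 6.396 and 9.41 in other neuroblasts, under 20 UMIs in library 1. Mitotic neuroblasts held 68.3% and 81.5% of the member UMIs of neuroblasts, against 82.3% and 86.9% of the UMIs of 56 G2 and M phase genes without Top2a and Mki67, and 45.5% and 63.8% of all UMIs. Across neuroblast clusters the member total was 3730 and 4365 CPM in the cluster led by Sp9, of which 83.6% and 81.7% were mitotic, 1619 and 1628 CPM in cluster 9, and 925 and 1053 CPM in the one led by Stmn2 and Meg3. Of the other replication genes, 45 of the 61 measured in both libraries were at least 1.5-fold higher in mitotic neuroblasts in both, and Pold4 was at least 1.5-fold lower in both. Of the 42 with at least 50 UMIs over both groups in each library, which leaves out Pold4, Atad2, at 107 and 111 CPM in mitotic neuroblasts against 9.59 and 13.7 in other neuroblasts, was the highest by the mean of both libraries, followed by Clspn, at 93.1 and 104 against 8.53 and 23.1 CPM, and Tk1, at 80.4 and 83.1 against 11.7 and 13.7 CPM. The lowest of these 42 were Mcmbp, at 73.97 and 109 against 100.2 and 141 CPM, Orc4, at 40.8 and 48.1 against 56.5 and 59.03 CPM, and Cdc25a, at 29.3 and 38.9 against 42.6 and 40.2 CPM.

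Activated clusters differed in the levels of their members. Cluster 6, of which 88.0% and 96.1% of cells were mitotic, had a member total of 5548 and 5235 CPM, and cluster 5, of which 14.5% and 16.5% were, had 3704 and 3659 CPM. Ung stood at 148 and 130 CPM in cluster 5 and at 63.8 and 54.9 CPM in cluster 6. It had 84.8 and 101 CPM in activated cluster 2, and 70.2 and 101 CPM in activated cluster 8. Rrm2 was at 209 and 225 CPM in cluster 5 and at 518 and 503 CPM in cluster 6. It had 166 and 183 CPM in cluster 2, and 381 and 351 CPM in cluster 8. Among astrocyte-like cells, cluster 1, led by Gfap, had 1005 and 1504 CPM of member RNA, and cluster 0, led by Cxcl14, had 538 and 635 CPM. The unnamed cluster 7 had 1368 and 1682 CPM.

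The members differed between library 1 and library 2 by unequal amounts across the groups. In other activated cells the median log2 ratio of library 1 over library 2 was -0.46 over the members and 0.07 over all genes, and 11 members were at least 1.5-fold lower in library 1 (5.89% of 10515 genes), or 7 with mitotic cells called from 5 UMIs. Dtl had 55.6 (46.5 to 65.9) CPM in library 1 and 110 (98.7 to 123) in library 2, and Cdc45, part of the active helicase, 16.3 and 32.7 CPM. Fen1 was the only member above 0 there, with 33.0 CPM in library 1 and 28.3 in library 2. In mitotic activated cells the median was 0.11 (-0.035 at resolution 2), no member was 1.5-fold lower (6.25% of 10405 genes were) or higher (8.26% were), and Dtl had 158 (142 to 176) CPM in library 1 and 202 (188 to 217) in library 2.

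In other neuroblasts the median was -0.26, with 4 of 28 measured members at least 1.5-fold lower in library 1 (6.85% of 8191 genes). It was -0.070 with 0 lower at resolution 0.5 and -0.51 with 13 lower where mitotic cells were called from 5 UMIs. In mitotic neuroblasts it was -0.26 as well, with 4 of 31 lower (9.69% of 8688 genes) and 1 higher, Msh6 (8.37%), and Ung had 15.3 CPM in library 1 and 44.7 in library 2. At resolution 2 that median was -0.0033 with 0 lower, and after thinning 9 were lower. In other astrocyte-like cells it was -0.47 over 29 measured members, with 10 lower in library 1 (9.32% of 10728 genes) and 2 higher, Chaf1a and Mcm3 (8.32%), but with stricter cell filters the median was -0.091 and 2 were lower. Cluster 0, the one with the lower member total, held 514 of all 683 astrocyte-like cells in library 1 and 300 of all 585 in library 2. These totals include the mitotic cells, and the part of cluster 0 in that ratio was not tested. Since each library is 1 pool of animals, these differences cannot be told apart from differences between preparations.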

How the data were processed

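Single cells were captured in droplets and sequenced in 2 libraries. The authors deposited 1 matrix of UMI counts per gene and barcode, a whole-number count with no normalization. Cell Ranger 2.0.0, GRCm38.p3 and mm10 are named in the submitters' processing notes without roles, and other upstream steps were not given in the sources used here. The 31 members and all gene lists were chosen with earlier results of these data known.

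Barcodes with under 500 genes or over 10% mitochondrial counts were left out, as were Scrublet doublets (set to 1.5% expected). Clustering used scanpy 1.11.5 and leidenalg 0.10.2 in Python 3.11.15 with 2000 variable genes, 30 components, 15 neighbours and resolution 1. Members, other cell cycle lists and histone genes took no part in it. Clusters were named from 13 marker lists by a rule settled after the clusters had been seen. A type outside the lineage needed 3 markers among 10 leading genes. A lineage class needed its 20 markers higher on average than in the other lineage clusters, 10 of them by 1.5-fold.

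Counts were summed per library, class and state and scaled to 1000000 (CPM). Poisson intervals for levels, conditional binomial intervals for ratios and Clopper-Pearson intervals for shares are exact at 95%. PCR copies are collapsed by UMIs, and these intervals cover counting error only. Medians over members had a 95% binomial order-statistic interval, which reflects the spread among members and was used only to judge the alternatives. A count of 0 allows up to 3 counts. The ratio code was tested on simulated data. Values per library were given for the 2 members at each end of a comparison and for 12 listed members, in full for the comparisons of whole classes and of mitotic states, and for the rest mainly as counts. For other replication genes the 3 highest and 3 lowest with at least 50 UMIs in each library were taken. Some further members were named after their values were seen. The alternatives were stricter filters (1000 genes, 5%), doublets kept, resolutions 2 and 0.5, mean CPM per cell, thinning, other mitotic and UMI minimums, and other depths. Promoter windows are from RefSeq (GRCm38.p6).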

Additional observations from a re-analysis of the deposited data

Results flagged for a closer look

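Gins1, a subunit of the GINS complex, had log2 ratios on opposite sides of 0 in neuroblasts over activated cells in the mitotic states, though 3 of the 4 intervals include 0. Among mitotic cells its log2 ratio was 0.14 in library 1 (interval -0.46 to 0.71) and 0.13 in library 2 (-0.23 to 0.49). Among other cells it was -0.65 in library 1 (-1.54 to 0.16) and -0.66 in library 2 (-1.30 to -0.061). This is given because both libraries lay above 0 in mitotic cells and below it in other cells. The difference was not tested, and its cause was not tested.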

How the results depend on the processing

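Medians, counts, member ratios, shares of UMIs and percents of cells were recomputed, each under a part of the alternatives; levels by cluster and by Top2a plus Mki67 group were not. The percent of cells was not recomputed with other mitotic minimums or with cluster 7 added. Shares of all genes under the alternatives are not given, so counts of members under them are not set against all genes. Of the medians, shares and percentages, 184 stayed within their interval and 97 moved past it. For medians this interval is that of the spread among members. No paired analysis was possible because each age has 1 library. The cause of these moves was not tested. Counting cluster 7 as astrocyte-like was chosen after seeing the data.

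For activated over astrocyte-like cells, the member median of 2.62 in library 1 became 2.14 with doublets kept, 2.03 at resolution 2 and 2.04 with cluster 7 counted as astrocyte-like. The 1.94 of library 2 became 2.27 with stricter filters, 2.27 with doublets kept, 2.22 at resolution 2, 2.34 at resolution 0.5, 2.23 by mean CPM per cell and 2.24 after thinning. For neuroblasts over activated cells, -0.57 in library 1 became -0.082 at resolution 2, and -0.38 in library 2 became -0.65 per cell and -0.62 after thinning. The members at least 1.5-fold lower there numbered 4 at resolution 2, 25 per cell and 23 after thinning in library 1, and 5, 16 and 18 in library 2.

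For mitotic over other neuroblasts, library 1 gave 1.49 with doublets kept, 1.70 per cell, 1.73 after thinning and 1.68 with mitotic cells called from 1 UMI. Library 2 gave 0.84 at resolution 2, 1.54 at resolution 0.5, 1.59 per cell, 1.48 after thinning, 1.52 from 1 UMI and 0.88 from 5 UMIs. For other activated over other astrocyte-like cells, library 1 gave 1.60 with stricter filters, 1.54 at resolution 2 and 1.64 with cluster 7. For other neuroblasts over other activated cells, library 1 gave -0.24 at resolution 2 (8 lower) and -1.03 per cell. Library 2 gave -0.41 at resolution 2 (12 lower), -1.19 at resolution 0.5, -1.16 per cell and -1.11 after thinning. For mitotic neuroblasts over mitotic activated cells, library 1 gave -0.26 at resolution 2 (7 lower) and -0.34 from 1 UMI.

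For library 1 over library 2, other astrocyte-like cells gave -0.091 with stricter filters (2 lower), -0.16 with doublets kept (2 lower), -0.17 at resolution 2 (3 lower) and -0.18 at resolution 0.5 (2 lower). There 6 were lower from 50 UMIs and 6 after thinning. Mitotic activated cells gave -0.035 at resolution 2 (1 lower), below the 0.11 given, and 0.011 from 1 UMI. Other activated cells had 7 lower from 5 UMIs. Other neuroblasts gave -0.40 at resolution 2, -0.070 at resolution 0.5 (0 lower) and -0.51 from 5 UMIs (13 lower), with 8 lower per cell. Mitotic neuroblasts gave -0.0033 at resolution 2 (0 lower), with 1 lower with doublets kept and 9 after thinning.

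The percent of member UMIs held by mitotic activated cells in library 1 was 71.0 with stricter filters, 58.8 at resolution 2, 82.5 from 1 UMI and 58.8 from 5 UMIs. In library 2 it was 71.0, 53.7, 85.6 and 55.8 in the same order, 65.2 with doublets kept and 65.4 at resolution 0.5. For neuroblasts it was 70.5, 70.4, 78.5 and 63.5 in library 1 and 80.4, 75.1, 89.5 and 73.3 in library 2, with 71.2 in library 1 with doublets kept and 83.9 in library 2 at resolution 0.5.

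The percent of cells with members, at depths of 1000 and 3000 UMIs and from 5 member UMIs, was 84.8, 100 and 87.5 in mitotic activated cells of library 1 and 81.1, 98.8 and 86.4 in those of library 2. In other activated cells it was 34.5, 74.9 and 40.4 in library 1 and 51.2, 88.6 and 57.8 in library 2, with 55.4 in library 1 with doublets kept and 70.3 in library 2 at resolution 2. In mitotic neuroblasts it was 69.1 and 95.7 at the 2 depths in library 1 and 70.1, 95.02 and 77.8 in library 2, with 89.5 in library 1 with stricter filters. In other neuroblasts it was 13.0, 56.6 and 11.8 in library 1 and 18.4, 76.3 and 19 in library 2, with 32.2 in library 1 with stricter filters and 53.5 in library 2 at resolution 2. In other astrocyte-like cells it was 3.52, 24.8 and 2.48 in library 1 and 6.74, 46.9 and 3.68 in library 2.

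Of the values of single members under the alternatives, 5064 were classed as the same, 546 as moved and 6 as reversed. At resolution 2, 154 moved and 423 were the same, and after thinning to 2000 UMIs 137 moved and 396 were the same. Values of single members given above thus also depend on the processing. Of single genes, 6 values that changed sign are given here, and the list is not complete. At resolution 2 in library 1, Cdt1 in neuroblasts over activated cells gave 0.024 and Rrm2 in other neuroblasts over other activated cells 0.016. Ung in mitotic over other neuroblasts of library 1 gave 0.26 from 1 UMI. In library 1 over library 2, Fen1 gave 0.14 and Ung 0.030 in other astrocyte-like cells with stricter filters, and Prim1 0.037 in other activated cells after thinning.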
